A study of Mus musculus with 28 samples.

Results

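Integrins and their partner adhesion molecules were examined in Treg cells sorted from brain tumors and spleens of mice. The set holds 10 genes chosen by family and role rather than by a threshold on their values, out of 53801 features in the table. It comprises 4 integrin α chains (Itgae, Itgal, Itga4 and Itgav), 3 integrin β chains (Itgb1, Itgb2 and Itgb7), the hyaluronan receptor gene Cd44, the P-selectin ligand gene Selplg and the integrin ligand gene Icam1. All 10 passed the filter on low values, a mean above 10 TPM in at least 1 compared group, in every comparison. Itgae, with a mean of 5.68 TPM in spleen after IgG2a, did so against that group only through the group where it was higher. The study measured RNA by the Smart-Seq2 protocol in bulk libraries of sorted TCR+CD4+CD25hiCD127lo cells. The mice were C57BL/6 animals of both sexes that carried CT2A, a murine glioblastoma line grown in the forebrain, so both spleen and tumor came from tumor-bearing mice. They received IgG2a isotype antibody or αPD1 + αGITR, clones RMP1-14 and DTA-1, at 250 µg per mouse for 4 doses given 3 days apart, and tissue was taken 2 days after the last dose. The libraries used numbered 7 from spleen and 5 from GBM under IgG2a. Under αPD1 + αGITR they numbered 8 from spleen and 7 from GBM.

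Integrins are heterodimers of an α and a β chain that bind matrix proteins or proteins on other cells, and their affinity is raised from inside the cell through Rap1, talin and kindlin. Chains pair in restricted ways. αL with β2 forms LFA-1, which binds ICAM-1 and other ICAMs, α4 with β1 or β7 binds VCAM-1 and MAdCAM-1, αE with β7 is CD103, which binds E-cadherin and marks tissue-resident lymphocytes, and αv pairs with β1, β3, β5, β6 or β8 to bind RGD motifs in matrix proteins and in latent TGF-β. CD44 binds hyaluronan, is shed and spliced variably, and is high on antigen-experienced T cells. PSGL-1, the product of Selplg, binds selectins once it carries the right sugars. These values are transcript levels in TPM, a share of all transcripts corrected for gene length, and they say nothing of surface protein, pairing or affinity. In bulk samples, fewer cells of a type and less RNA per cell cannot be told apart.

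Libraries summed to between 999999.2 and 1000006.1 TPM, read depth is unknown, and between 7702 and 17460 features were above 1 TPM. Of the genes behind the sort, Cd4 was between 31.4 and 204 TPM, Il2ra, the gene of CD25, between 9.02 and 410.3 TPM and Trac between 18.6 and 1399 TPM, each lowest in a splenic IgG2a library. Foxp3, the Treg cell factor that the sort did not use, was between 21.5 and 440.4 TPM. The sum of 9 T cell and Treg markers was 1343 to 3292 TPM in GBM libraries and 236 to 2410 TPM in splenic ones. Markers of macrophages and microglia (14 genes) summed to 5131 TPM in GBM IgG2a library 79_a and 2353 TPM in GBM αPD1 + αGITR library 73_a, and to at most 293 TPM in every splenic library. The dendritic cell, neutrophil and NK cell lists summed to at most 49.4 TPM in every library, the B cell list to at most 64.8 TPM, and a list of glia, neuron and candidate tumor cell genes to at most 171 TPM. The platelet gene Gp9 was at 28.1, 40.7 and 71.97 TPM in splenic αPD1 + αGITR libraries 73_a, 72_b and 72_c and at most 10.5 TPM elsewhere. The endothelial genes Cdh5, Kdr, Cldn5 and Tek had medians at or near 0 in all 4 groups, while Pecam1, which leukocytes also express, was between 1.89 and 52.2 TPM. GBM IgG2a library tumor_369_a had the fewest detected features and the highest Il7r, the gene of CD127, at 277 TPM.

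Itgb7 was the most abundant of the 10 genes in all 4 groups by median, and the order of the next 2, Selplg and Itgb2, was also the same in each. In GBM after IgG2a, however, Itgb7 and Selplg were not resolved, since Itgb7 was the higher in 3 of 5 libraries and their mean difference was -0.0039 ± 0.78 on the log2 scale (SD, n = 5). In GBM Treg cells after αPD1 + αGITR the medians were 886 TPM for Itgb7, 548 TPM for Selplg, 191 TPM for Itgb2 and 124 TPM for Itgav. Then came Icam1 at 56.2, Cd44 at 55.7, Itgae at 54.3, Itgb1 at 42.7, Itgal at 36.1 and Itga4 at 20.2 TPM. Itgb7 lay above Selplg, and Selplg above Itgb2, in 7 of 7 of these libraries. Icam1 and Cd44, next to each other in that order, differed by 0.04 ± 0.29 on the log2 scale (SD, n = 7), so their order is not resolved, nor is that of Cd44 and Itgae, at 0.17 ± 0.59. In splenic Treg cells after IgG2a, Itgb7 had a median of 380.0 TPM, Selplg of 135 TPM and Itgb2 of 78.3 TPM, above Icam1 (22.9), Itgal (20.4), Itga4 (19.2) and Itgb1 (10.5). Cd44 (5.98), Itgav (5.08) and Itgae (4.65 TPM) came last there, and no neighbours among these 3 had a fixed order, since each pair kept it in only 4 of 7 libraries. After αPD1 + αGITR the splenic order began with the same 3 genes, at 442, 225 and 96.1 TPM, and Itgav was again last at 7.77 TPM. Itgav therefore ranked 4 of 10 in both GBM groups, and 9 and 10 in the splenic groups.

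**Figure D1:**
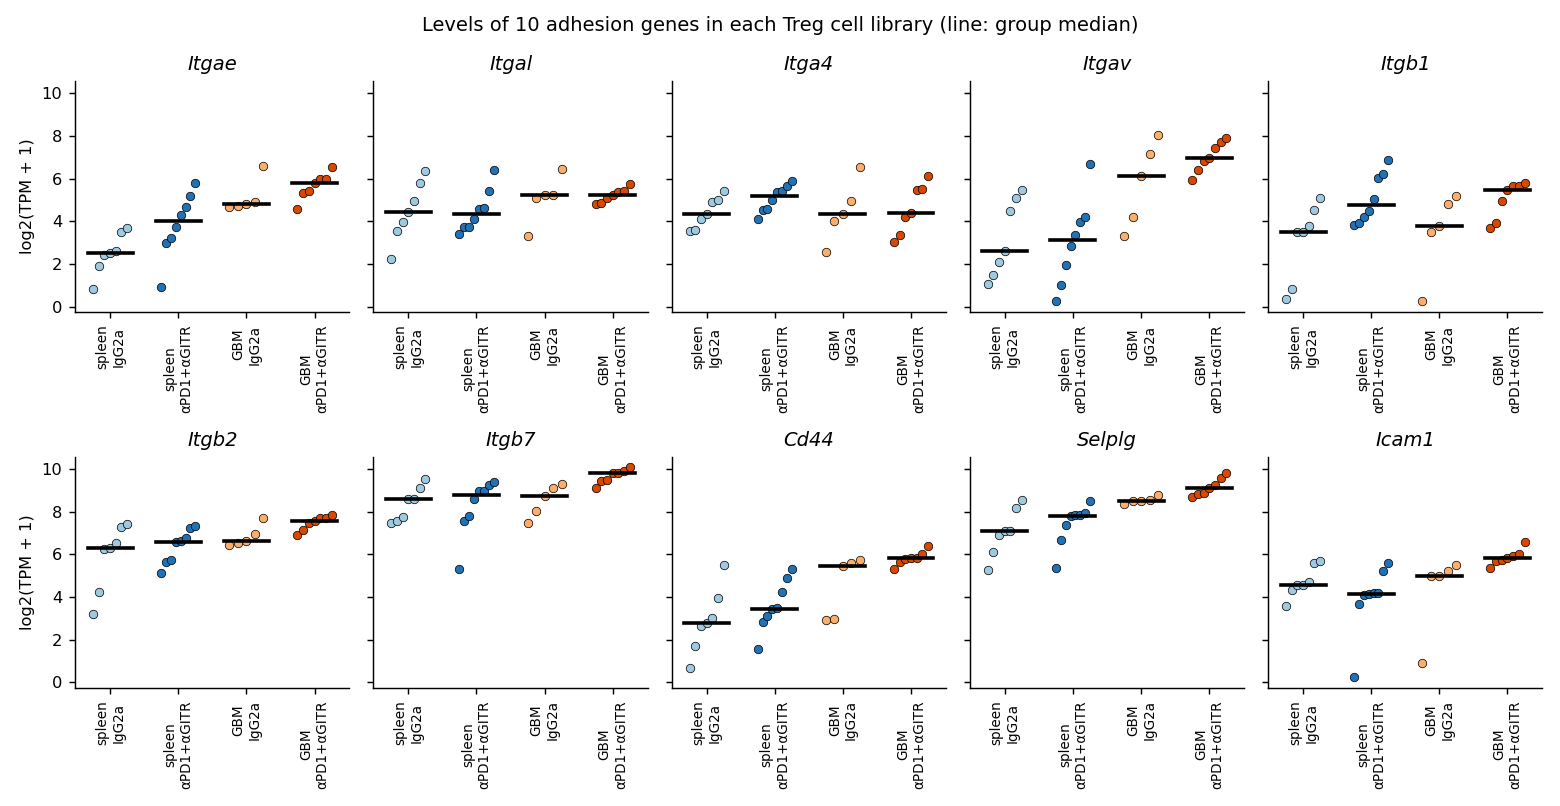
Levels of each gene in every library on a log2(TPM + 1) scale, with 1 point per library and a line at the group median, for splenic and GBM Treg cells after IgG2a or αPD1 + αGITR. The medians of Itgav, Cd44 and Selplg are highest in the GBM groups, with 2 low GBM IgG2a libraries for Cd44, whereas Itga4 covers much the same range in all 4 groups.

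RefSeq promoter entries (GRCm38.p6) matched 6 of the 10 genes by symbol. The 250 bases before the annotated start are shown for Itgav, Cd44 and Icam1, which had the 3 largest differences between tissues after αPD1 + αGITR, and for Itga4, which was not higher in GBM there. They lie at chr2:83724147-83724396 (plus strand, Itgav), chr2:102901666-102901915 (minus strand, Cd44), chr9:21015690-21015939 (plus strand, Icam1) and chr2:79255176-79255425 (plus strand, Itga4), and each is written 5′ to 3′ on the strand of its gene. Capitals mark matches on either strand to 6 motifs, which were the GC box GGGCGG, AP-1 TGANTCA, NF-κB (GGGA and CC with any 4 bases between), RUNX TGTGGT, the E-box CACGTG and ETS CCGGAAG.
Itgav: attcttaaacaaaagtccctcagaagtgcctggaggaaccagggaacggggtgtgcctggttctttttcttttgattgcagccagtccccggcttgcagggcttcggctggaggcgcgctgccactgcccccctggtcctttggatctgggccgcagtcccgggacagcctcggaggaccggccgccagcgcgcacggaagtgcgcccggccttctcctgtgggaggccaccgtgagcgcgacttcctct
Cd44: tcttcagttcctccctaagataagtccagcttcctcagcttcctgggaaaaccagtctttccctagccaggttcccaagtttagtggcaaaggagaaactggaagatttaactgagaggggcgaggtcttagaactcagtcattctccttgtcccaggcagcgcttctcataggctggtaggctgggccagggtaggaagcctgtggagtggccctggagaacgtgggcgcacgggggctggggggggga
Icam1: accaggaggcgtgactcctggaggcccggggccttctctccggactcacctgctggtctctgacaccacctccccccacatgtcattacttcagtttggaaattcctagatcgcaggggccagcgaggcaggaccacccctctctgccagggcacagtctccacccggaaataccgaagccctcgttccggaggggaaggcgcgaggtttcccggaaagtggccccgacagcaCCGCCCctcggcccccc
Itga4: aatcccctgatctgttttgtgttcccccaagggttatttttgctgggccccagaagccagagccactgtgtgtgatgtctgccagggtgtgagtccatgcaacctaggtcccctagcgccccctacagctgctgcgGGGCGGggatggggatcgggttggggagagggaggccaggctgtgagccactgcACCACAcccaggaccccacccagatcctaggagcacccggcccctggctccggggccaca
A GC box was matched once in Icam1 and once in Itga4, a motif held by 32.7% of 32851 promoter windows of this length. Itga4 also held 1 RUNX match (14% of windows). No stretch held an AP-1 (6.75% of windows), NF-κB (17.6%), E-box (6.02%) or ETS (6.91%) match, and Itgav and Cd44 held none of the 6 motifs. A match is a description of letters and no match says only that these letters are not in this window.

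The first comparison asked how GBM Treg cells differed from splenic Treg cells in mice that had received αPD1 + αGITR. Itgav, Cd44, Selplg, Icam1 and Itgae were higher in GBM Treg cells at an adjusted p under 0.05 (limma, Benjamini-Hochberg over 7506 genes), and Itgb7 and Itgb2 were higher only at what is called here the study's threshold, a p under 0.05 with a change of more than 2-fold. The study does not say whether that p was adjusted, and it was read as unadjusted. Itgal, Itga4 and Itgb1 passed neither. Thus 7 of 10 genes were higher at the study's threshold, where 33.9% of all genes tested were, and 5 of 10 were higher at the adjusted threshold, where 15.8% of all genes were. The 5 genes at the adjusted threshold were 1 to 7 over the other settings, and 3 without any one of GBM libraries 70_a, 70_b, 72_a, 73_a, 74_a and 80_a or splenic library 70_a. Over all genes 1310 passed it in either direction, with 135 to 2123 over the other settings and 591 to 2279 with a library left out. The median difference of the 10 genes was 1.59 on the log2(TPM + 1) scale, beside 0.95 over all genes, and 8 of 10 were above 0, beside 77.6% of all genes.

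Among the α chains, Itgav (chr2:83724397-83806916, GRCm38), the αv chain, had the largest difference of the set. It was at 59.5, 83.0, 114, 124, 174, 212 and 238 TPM in the 7 GBM libraries, and between 0.19 and 101 TPM with a median of 7.77 TPM in the 8 splenic ones. Every GBM library lay above 7 of the 8 splenic libraries, and the eighth, 73_a at 101 TPM, lay among the lower GBM values. The difference was 4.00 ± 0.72 (SE), a 16.0-fold change on that scale (95% interval 2.51 to 5.48, adjusted p = 0.0013, exact permutation p = 0.000777). Of the 10 genes, Itgav alone passed the adjusted threshold in each of the 14 other settings and with each of the 15 libraries left out in turn, with adjusted p between 5.88e-05 and 0.0302.

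Itgae (chr11:73090583-73147446), the αE chain of CD103, was between 22.9 and 91.3 TPM with a median of 54.3 TPM in GBM libraries and between 0.91 and 55.2 TPM with a median of 15.4 TPM in splenic ones. All 7 GBM values were above the splenic median, although the groups overlapped. The difference was 1.80 ± 0.61 (SE, adjusted p = 0.0450, exact permutation p = 0.00777). This call was close to the threshold and held in only 2 of 14 other settings and in 3 of 15 with a library left out, with adjusted p between 0.0211 and 0.333. Itgal (chr7:127296260-127335138), the αL chain of LFA-1, had medians of 36.1 and 19.7 TPM and a difference of 0.73 (95% interval -0.31 to 1.77, adjusted p = 0.263). Itga4 (chr2:79255426-79333123), the α4 chain, was between 7.25 and 69.4 TPM in GBM libraries and between 16.3 and 58.7 TPM in splenic ones, and its medians were 20.2 and 36.0 TPM. Its difference was -0.49 (95% interval -1.60 to 0.62, adjusted p = 0.476). With TMM-type factors the difference of Itga4 was -1.29, with quantile normalization -1.14 and with the mean level of Cd3d, Cd3e and Cd3g as a covariate -1.20, each past the study's threshold and none past the adjusted one (adjusted p 0.0726 to 0.756 over all alternatives).

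Among the β chains, Itgb7 (chr15:102215995-102231944) was between 550.2 and 1085 TPM in GBM libraries and between 38.1 and 682 TPM in splenic ones. The lowest splenic value, in 72_b, stood far below the next. The difference was 1.43 ± 0.52 (SE, adjusted p = 0.0558, exact permutation p = 0.00389), and it was 0.59 with TMM-type factors. Itgb2 (chr10:77530252-77565708), the β2 chain, was between 119 and 232 TPM in GBM libraries and between 33.7 and 159 TPM in splenic ones, a difference of 1.11 ± 0.44 (adjusted p = 0.0724, exact permutation p = 0.00389) that was 0.28 with TMM-type factors. Itgb1 (chr8:128685654-128733200), the β1 chain, had medians of 42.7 and 26.5 TPM, and its difference was -0.06 (95% interval -1.23 to 1.11, adjusted p = 0.941). The 3 splenic libraries with the highest Itgb1 were those with the highest Gp9, and without them the difference was 0.72 (adjusted p = 0.314). The part of platelet RNA in this value was not tested.

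Cd44 (chr2:102811141-102901665) was between 38.3 and 83.1 TPM with a median of 55.7 TPM in GBM libraries. In splenic libraries it was between 1.92 and 39.3 TPM with a median of 10 TPM, so that 1 splenic library, 70_c, reached the GBM range. The difference was 2.22 ± 0.54 (SE, a 4.65-fold change, adjusted p = 0.0107, exact permutation p = 0.000777). Selplg (chr5:113818536-113832644) was between 414 and 893 TPM in GBM libraries and between 39.9 and 363 TPM in splenic ones, and it was the only gene of the set in which every GBM library lay above every splenic one, as held for 2.96% of all genes. Its difference was 1.74 ± 0.46 (3.35-fold, adjusted p = 0.0165, exact permutation p = 0.000311). Icam1 (chr9:21015985-21028817), which T cells display as well as bind, was between 39.4 and 94.8 TPM in GBM libraries. In splenic libraries it was at 0.18, 11.7, 16.4, 16.6, 17.0, 17.5, 36.0 and 47.1 TPM, and the difference was 1.96 ± 0.62 (3.89-fold, adjusted p = 0.0345, exact permutation p = 0.0014). The calls of Cd44 and Selplg held with each of the 15 libraries left out and in 11 and 10 of 14 other settings (adjusted p 0.00122 to 0.110 and 0.00542 to 0.171), and that of Icam1 held in 7 of 15 and 4 of 14 (adjusted p 0.00783 to 0.307).

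**Figure D2:**
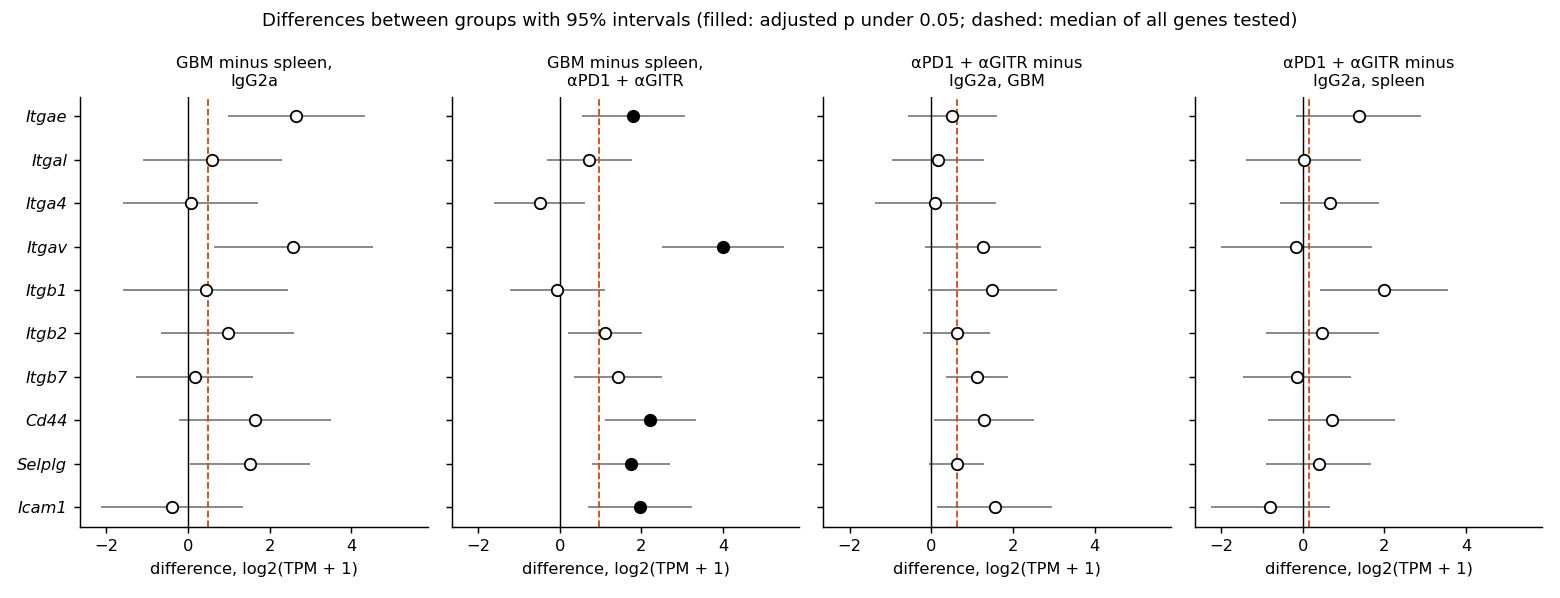
Difference of each gene between 2 groups in log2(TPM + 1), with 1 panel per comparison, bars for the 95% interval, filled points for an adjusted p under 0.05 and a dashed line at the median over all genes tested. Filled points appear only for Itgae, Itgav, Cd44, Selplg and Icam1, in the comparison of GBM and splenic Treg cells after αPD1 + αGITR.

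Another scaling of the libraries made these differences smaller. Over all genes, 2546 were higher and 474 lower in GBM at the study's threshold as deposited, but 905 and 898 with TMM-type factors, which took the median difference from 0.95 to 0.22. Under them Itgav was at 3.36, Cd44 at 1.45, Icam1 at 1.10, Itgae at 1.02 and Selplg at 0.90, Itgal turned to -0.09, and 3 genes passed the study's threshold in place of 7, namely Itgav, Cd44 and, in the lower direction, Itga4. T cell transcripts moved with tissue as well, and with the mean level of Cd3d, Cd3e and Cd3g as a covariate, an alternative chosen after the data were seen, Itgav was at 2.97 (adjusted p = 0.0302) and was the only gene of the 10 past the adjusted threshold. Without GBM library 73_a, the one high in macrophage and microglia markers, the differences of Itgav, Cd44 and Selplg were 4.18, 2.22 and 1.75, and the part of those cells in the other values was not tested.

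**Figure D3:**
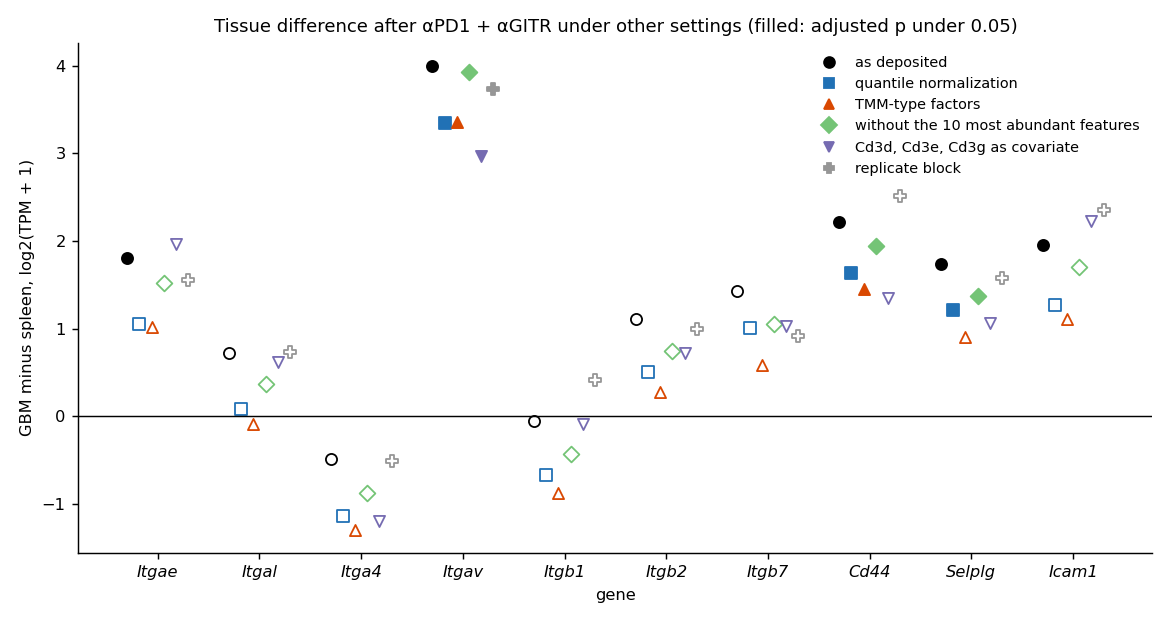
Difference between GBM and splenic Treg cells after αPD1 + αGITR in log2(TPM + 1) for each gene, as deposited and under 5 other settings, with filled symbols for an adjusted p under 0.05. Itgav is the highest and is filled under all 6, while Itga4 is below 0 under all 6.

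The second comparison set GBM against splenic Treg cells in mice that had received IgG2a. Itgae, Itgav and Selplg were higher in GBM Treg cells at the study's threshold, 3 of 10 genes where 7.63% of all 7380 genes tested were, and none of the 10 passed the adjusted threshold by limma, which 0.488% of all genes passed as higher. In both directions 42 genes passed it, 6 to 262 under other settings and 23 to 75 with a library left out. Of the 10 genes Itgae passed it with library weights (adjusted p = 0.00426) and with all 4 groups in one fit (adjusted p = 0.0346). Itgae entered the test only through GBM and could only be higher there. These values and its place among the 3 genes are therefore a description. With a mean above 10 TPM required in every group Itgae was untested. Then 2 of the other 9 genes passed the study's threshold as higher, beside 248 of 4476 genes. The median difference of the 10 genes was 0.78, beside 0.48 over all genes, and 9 of 10 were above 0, beside 66.1% of all genes. T cell transcripts moved with tissue here as well, and with the mean level of Cd3d, Cd3e and Cd3g as a covariate, chosen after the data were seen, the median of the 10 genes was -0.065 beside -0.021 over all genes, 4 of 10 were above 0 and Itgae alone passed the study's threshold. The macrophage and microglia markers C1qa (3.51) and Cx3cr1 (3.30) were higher in GBM at the study's threshold, and the list of 14 such genes summed to between 82.4 and 5131 TPM in GBM and between 40.7 and 99.1 TPM in spleen. Of 8 glia, neuron and candidate tumor cell genes 2 were tested and both passed as higher, Mbp (2.99) and Gfap (2.34). The 8 summed to 15.3 to 171 TPM in GBM and 3.90 to 19.5 TPM in spleen. With splenic means of 6.22 and 0.064 TPM, Mbp and Gfap also passed the filter only through GBM and are given as a description. Without GBM library 79_a, the one highest in macrophage and microglia markers, 3 of the 10 genes passed the study's threshold and their median was 1.04, and the part of other cells in the remaining values was not tested.

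Itgae was at 24.4, 25.3, 27.3, 28.8 and 96.4 TPM in the 5 GBM libraries and at 0.76, 2.69, 4.43, 4.65, 5.01, 10.4 and 11.8 TPM in the 7 splenic ones. It was the only gene of the 10 without overlap between these groups, as held for 1.25% of all genes. Its GBM mean of 40.5 TPM alone brought it past the filter, so that it could be tested only as higher in GBM, and its limma values and this lack of overlap are given as a description. The difference was 2.65 ± 0.83 (SE, a 6.30-fold change, adjusted p = 0.166, exact permutation p = 0.00253), it lay between 2.29 and 2.85 with each library left out, and its adjusted p over all alternatives ran from 0.00426 to 0.613. Itgav was at 8.91, 17.3, 68.6, 139.6 and 261 TPM in GBM libraries and between 1.06 and 43.7 TPM in splenic ones. All 5 GBM values were above the splenic median of 5.08 TPM, but 2 of them lay within the splenic range. The difference was 2.57 ± 0.96 (SE, adjusted p = 0.324, exact permutation p = 0.0467). Selplg was at 326, 358, 359.6, 368.5 and 444 TPM in GBM libraries and between 37.4 and 379 TPM in splenic ones, where only 79_b was above 300 TPM. Its difference was 1.51 ± 0.72 (adjusted p = 0.487, exact permutation p = 0.0189).

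Cd44 fell into separate levels among the GBM IgG2a libraries, at 43.3, 47.0 and 52.4 TPM in 78_a, 77_a and 76_a and at 6.63 and 6.87 TPM in tumor_369_a and 79_a, and its difference from the spleen was 1.64 (95% interval -0.22 to 3.49, adjusted p = 0.559). The intervals of the other 6 genes also included 0, with differences of 0.97 for Itgb2, 0.59 for Itgal, 0.43 for Itgb1, 0.17 for Itgb7, 0.07 for Itga4 and -0.39 for Icam1. Without GBM library 77_a, which held the highest Itgav, 1 gene (Itgae) passed the study's threshold. Itga4 and Itgb7 changed sign with TMM-type factors, to -0.18 and -0.16, and without GBM library tumor_369_a the difference of Icam1 was 0.46. Over all genes, 563 were higher and 170 lower at the study's threshold as deposited, and 438 and 390 with TMM-type factors.

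The make-up of the α chains within a library does not depend on how libraries are scaled. Itgav made up 38.9% to 67.5% of the summed TPM of Itgae, Itgal, Itga4 and Itgav in GBM Treg cells after αPD1 + αGITR, with a median of 51.5%. In splenic Treg cells after αPD1 + αGITR its share was 0.432% to 56.2% with a median of 7.22%, and 7 of the 8 libraries were below every GBM library. After IgG2a the median share was 30.6% in GBM (10.4% to 76.7%) and 11.2% in spleen (1.03% to 47.5%), and the ranges overlapped widely. The median share of Itga4 was 8.38% and 13.0% in the GBM groups after αPD1 + αGITR and IgG2a and 39.3% and 32.8% in the splenic groups. Since the 4 shares add up to the whole, that of Itga4 is lower wherever the others are higher, and after IgG2a its median level was 19.2 TPM in both tissues. Among the 3 β chains Itgb7 had a median share of 78.9%, 73.8%, 75.8% and 81.3% in GBM after αPD1 + αGITR and IgG2a and in spleen after αPD1 + αGITR and IgG2a. Its range was widest in spleen after αPD1 + αGITR, at 24.7% to 86.4%, where Itgb1 reached 41.1% and Itgb2 42.2%. These shares are descriptions and were not tested.

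**Figure D4:**
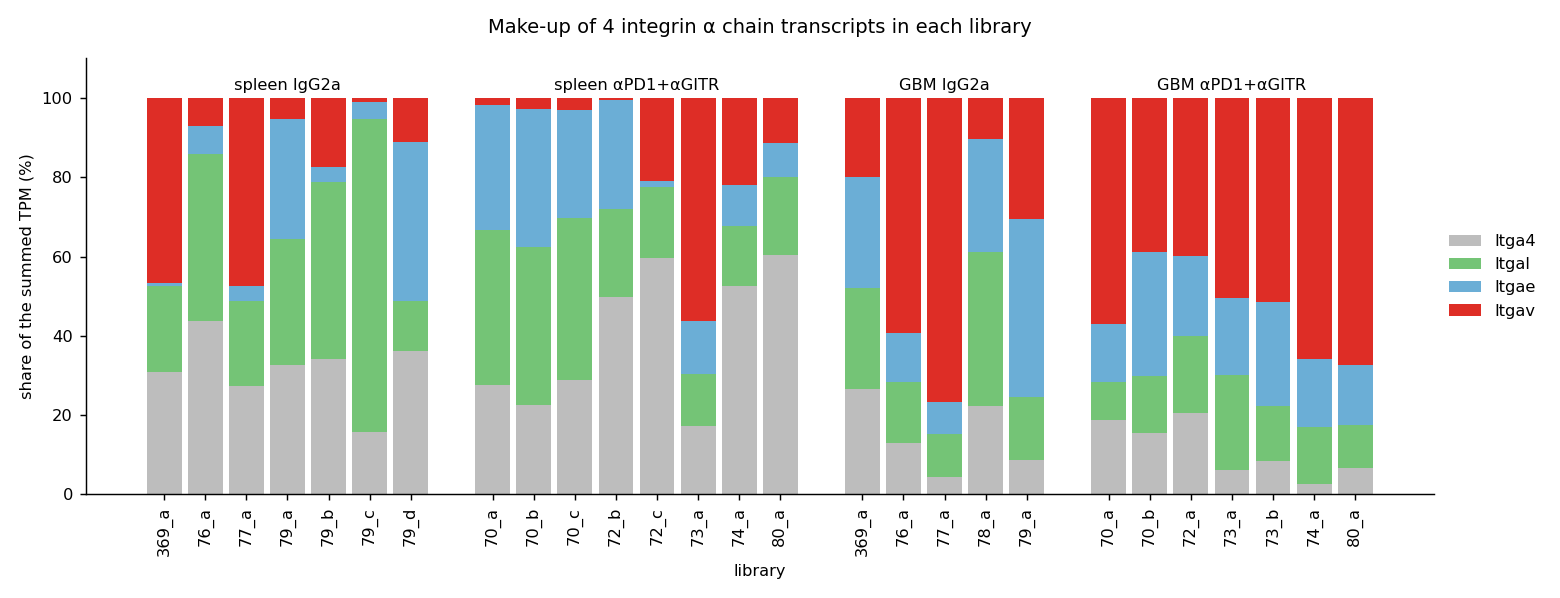
Share of each of 4 integrin α chain genes in their summed TPM (%), with 1 stacked bar per library and libraries grouped by tissue and treatment. Itgav takes 38.9% or more in each of the 7 GBM libraries after αPD1 + αGITR, and a splenic library after the same treatment reaches that in 1 case (73_a).

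The third comparison asked what αPD1 + αGITR changed within GBM Treg cells. No gene of the 7848 tested by limma passed the adjusted threshold (0%), although 1749 had an unadjusted p under 0.05. That 0 was not stable over all genes, with 263 past the threshold with library weights, 79 with detected genes as a covariate, 103 without GBM library 73_b and 21 without 79_a, while none of the 10 genes passed it under any of these. As deposited, 16.8% of genes were higher at the study's threshold, among them Itgb7, Icam1 and Cd44 of the 10 genes here. All 10 were higher after αPD1 + αGITR as deposited, beside 71.6% of all genes, with a median of 0.88 beside 0.62. With TMM-type factors, which took the median of all genes to 0.054 and the genes past the study's threshold from 1318 higher and 382 lower to 479 and 611, 5 of 10 were above 0 and none passed the study's threshold, and Itgae, Itgal, Itga4, Itgb2 and Selplg turned to between -0.60 and -0.07.

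Itgb7 was at 175, 263, 427, 544 and 634 TPM after IgG2a and between 550.2 and 1085 TPM after αPD1 + αGITR. Only 1 treated library lay within the IgG2a range, and the difference was 1.13 ± 0.36 (SE, a 2.19-fold change, adjusted p = 0.121, exact permutation p = 0.00253). Icam1 was at 0.88, 30.4, 30.8, 35.8 and 44.7 TPM after IgG2a, the first in tumor_369_a, and between 39.4 and 94.8 TPM after treatment. Its difference was 1.56 ± 0.68 (adjusted p = 0.195, exact permutation p = 0.00253), and without tumor_369_a it was 0.70 and Itgb7 alone passed the study's threshold. Cd44, with the 2 low IgG2a libraries given above, was between 38.3 and 83.1 TPM after treatment, a difference of 1.29 ± 0.59 (adjusted p = 0.207, exact permutation p = 0.0215).

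Selplg was between 326 and 444 TPM after IgG2a and between 414 and 893 TPM after treatment, a difference of 0.63 (95% interval -0.05 to 1.30, adjusted p = 0.252, exact permutation p = 0.00758). Itgb2 differed by 0.63 (95% interval -0.19 to 1.45, adjusted p = 0.335, exact permutation p = 0.0354) and Itgb1 by 1.497 (95% interval -0.08 to 3.08, adjusted p = 0.244). Itgav differed by 1.27 (95% interval -0.16 to 2.70, adjusted p = 0.269), and its spread was smaller after treatment, with an SD on the log2 scale of 0.72 (n = 7) against 1.98 (n = 5). The SD was also smaller after treatment for each other gene of the set but Selplg (0.41 against 0.16), and spread was not tested. Itgae differed by 0.52, Itgal by 0.16 and Itga4 by 0.10, with intervals on both sides of 0. Between 1 and 5 genes passed the study's threshold with 1 library left out, 5 of them without IgG2a library 77_a and 1 without IgG2a library tumor_369_a or treated library 70_b. None of the 10 passed the adjusted threshold in any of these 12 fits or in the 12 other settings.

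The fourth comparison asked the same of splenic Treg cells. No gene of the 6634 tested by limma passed the adjusted threshold (0%), 168 had an unadjusted p under 0.05, and 1.49% were higher at the study's threshold, of the 10 genes only Itgb1. The median of the 10 genes was 0.44 beside 0.15 over all genes, and 7 of 10 were above 0, beside 58.1%. Itgb1 was at 0.29, 0.75, 10.1, 10.5, 12.6, 22.5 and 33.5 TPM after IgG2a and at 13.2, 14.3, 17.1, 21.1, 32.0, 63.5, 72.6 and 117 TPM after αPD1 + αGITR. All 8 treated libraries were above the IgG2a median, and 3 of them were above every IgG2a library. The difference was 1.98 ± 0.77 (SE, a 3.95-fold change, adjusted p = 0.9997, exact permutation p = 0.0205).

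The 3 splenic libraries highest in Itgb1, which were 72_c, 73_a and 72_b, were the 3 with Gp9 above 20 TPM. The sum of 4 platelet markers ran from 0 to 90.1 TPM in the treated and from 0.31 to 21.0 TPM in the IgG2a splenic libraries, with medians of 16.5 and 1.45 TPM. The sums of 90.1, 53.9 and 38.9 TPM in 72_c, 72_b and 73_a were mostly Gp9. The other markers, Itga2b, Pf4 and Ppbp, reached at most 10.96, 10.8 and 8.19 TPM in any treated splenic library. Library 70_a, with Gp9 at 1.16 TPM, had a sum of 20.5 TPM. Without the 3 libraries with Gp9 above 20 TPM, an alternative chosen after the data were seen, the difference of Itgb1 was 1.20 (limma, unadjusted p = 0.167) and Itgae was the 1 gene past the study's threshold, at 1.82. Itgae, with a mean of 5.68 TPM after IgG2a, passed the filter in this comparison only through the treated group. Its values for treatment in spleen are given as a description. Itgb1 also did not pass without IgG2a library 79_c, where it was at 0.29 TPM. Itgae differed by 1.37 (95% interval -0.16 to 2.90, adjusted p = 0.9997), with 7 of 8 treated libraries above the IgG2a median, and Icam1 by -0.79 (95% interval -2.26 to 0.67). The part of platelet RNA in Itgb1 was not tested.

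**Figure D5:**
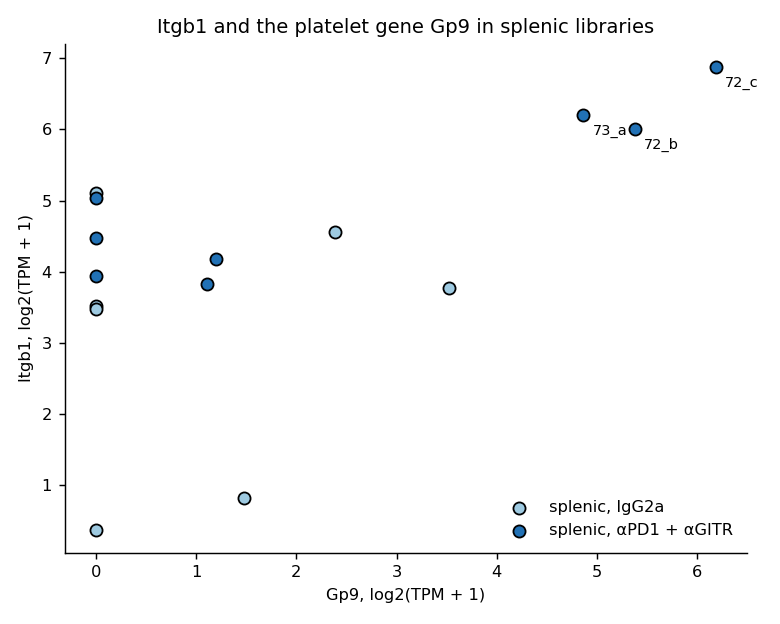
Itgb1 against the platelet gene Gp9 in the 15 splenic libraries, both in log2(TPM + 1), with IgG2a and αPD1 + αGITR libraries in different shades. The 3 labelled libraries have Gp9 above 20 TPM and the 3 highest values of Itgb1.

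The difference in treatment response between tissues was tested as an interaction over all 4 groups and 8687 genes. By limma no gene passed the adjusted threshold (0%), 1056 had an unadjusted p under 0.05, 6.8% were higher at the study's threshold and 63.5% were above 0. Of the 10 genes 7 were above 0, with a median of 0.19 beside 0.45 over all genes, and Icam1 passed the study's threshold at 2.35 ± 1.01 (SE, adjusted p = 0.353). The Icam1 difference after treatment was 1.56 in GBM and -0.79 in spleen, where its 95% interval of -2.26 to 0.67 included 0. Its call was lost without GBM IgG2a library tumor_369_a or without splenic αPD1 + αGITR library 80_a, the libraries in which Icam1 was at 0.88 and 0.18 TPM. For Itgav the interaction was 1.43 (95% interval -1.06 to 3.92) and for Itgae -0.85 (95% interval -2.74 to 1.04), so that a dependence of their tissue differences on treatment was not shown.

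Other genes of the adhesion system were read from lists. Of 19 other integrin chains, at most 2 passed the filter in a comparison. Itgb3, the β3 chain that pairs with αv, was between 17.2 and 28.2 TPM in GBM Treg cells after αPD1 + αGITR and between 0.12 and 20.9 TPM in splenic ones, a difference of 2.36 ± 0.62 (SE, adjusted p = 0.0157). With splenic means of 5.56 and 3.26 TPM after αPD1 + αGITR and IgG2a it passed the filter only through GBM, so that its differences between tissues are given as a description. The highest splenic value, 20.9 TPM, was in 72_c, and platelets carry β3 with the αIIb chain; the part of platelet RNA was not tested. After IgG2a Itgb3 was at 2.84, 14.6, 15.3, 17.8 and 29.1 TPM in GBM and between 0.09 and 12.5 TPM in spleen, a difference of 2.20 (adjusted p = 0.401). Itgb8 had medians of 7.74, 6.90, 3.96 and 1.87 TPM in GBM after αPD1 + αGITR and IgG2a and in spleen after αPD1 + αGITR and IgG2a, while the medians of Itgb5 and Itgb6, the other partners of αv, were at most 3.63 TPM. The myeloid α chains Itgam and Itgax had medians of at most 1.06 TPM in every group.

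In the comparison of tissues after αPD1 + αGITR, 4 of 22 tested integrin activation and adaptor genes passed the adjusted threshold and all 4 were higher in GBM, beside 15.8% of all genes tested, so that this count is near the background. They were Rap1b (2.81) and Rap1a (2.12), the GTPases that switch integrins on, Zyx (2.04), a focal adhesion protein, and Cytip (1.85), a cytohesin partner in lymphocytes. Of 11 tested ligands and counter-receptors 4 passed, all higher, namely Spp1, Alcam (2.71), Cd47 (2.04) and Cd2 (1.90). Spp1, which encodes the αv ligand osteopontin, was listed at 0 in all 15 splenic libraries, so that it passed the filter only through GBM and could only be higher there, which leaves 3 of the other 10 ligands. It had medians of 0.97 and 7.73 TPM in the GBM groups, and its 2 highest values, 449.9 and 146 TPM, were in GBM libraries 79_a and 73_a, which were the highest in macrophage and microglia markers. Among CD44 partners 1 of 5 passed, Rdx (2.62), a cytoskeletal linker of CD44, and among tetraspanins 2 of 8, Cd53 (1.92) and Cd37 (1.58). None of 6 tested selectins and selectin-ligand enzymes passed. These counts stand beside the same 15.8% of all genes, and whether a list differs from that share was not tested. Over these lists no gene was lower at the adjusted threshold, and in the other 4 comparisons none passed it in either direction.

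Likeness of pattern was described by Spearman's rank correlation over the 27 libraries, among 8687 genes, with no test, since the points share tissue and library. The genes most like Itgav were Fam49b (0.86), Mxd1 (0.83) and Sdcbp2 (0.82), and those most like Itgae were Osbpl3 (0.82), Arl5a (0.80) and Fgl2 (0.79). Among those most like Selplg were Igtp (0.94) and Arl6ip1 (0.94), and Itgb2 was most like Lck (0.92), Igtp (0.88) and Sh2d2a (0.88). Cd44 was most like Entpd1 (0.90), Mapkapk3 (0.88) and Susd3 (0.88), and Icam1 most like Irf7 (0.83), Tbx21 (0.78) and Slc16a3 (0.78). Itgb7 was most like Def6 (0.86), Fcho1 (0.86) and Esyt1 (0.85), Itgal like Ints9 (0.79), Foxp3 (0.74) and Kbtbd4 (0.72), Itga4 like Emc3 (0.82), Ankrd12 (0.82) and Gm34006 (0.78), and Itgb1 like Zmynd11 (0.81), Slc11a1 (0.76) and Cdc25b (0.76). Among the 10 genes themselves, the partners of LFA-1, Itgal and Itgb2, correlated at 0.56, those of CD103, Itgae and Itgb7, at 0.53, and Itga4 with Itgb7 at 0.26 and with Itgb1 at 0.25. The highest values within the set were 0.82 for Itgb2 with Selplg, 0.82 for Cd44 with Selplg and 0.78 for Itgav with Cd44. Reads from antisense neighbours could enter 3 of the genes, since strand use in counting is not stated. Exons of Cerkl, Gm13684 and Gm47079 share 1124, 634 and 511 bases with Itga4, Itgav and Icam1, at medians over all libraries of 1.5, 0.31 and 0.02 TPM.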

How the data were processed

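RNA of sorted Treg cells was sequenced on a NextSeq500. Per the labels' processing notes the tools were bcl2fastq and TopHat2 with build mm10, and the study's methods give RSEM for the TPM values; annotation and other versions are not given in the sources used here. The deposited values are TPM plus 1, treated as a signal that the authors had scaled to a fixed sum, so read depth and its counting error are unknown. The authors' constant of 1 was subtracted. Of 28 libraries 27 were used, since 1 value column carries no name, and the group short of a library is spleen after αPD1 + αGITR, with 8 of 9. Genes with a mean above 10 TPM in at least 1 compared group were tested with limma 3.58.1 (R 4.3.3, trended variance, two-sided) on log2(TPM + 1), with no block and with Benjamini-Hochberg adjustment over all genes tested, after the same steps had been tested on simulated data. What is called the study's threshold is a p under 0.05 with a change of over 2-fold; the study does not state an adjustment, and the unadjusted p was used. Each gene of the set was also given a two-sided exact permutation test of its difference, 40 tests in all with no adjustment over them. Every sample came from a different mouse by the labels, which do not say what shared numbers in library names mean. Alternatives were pseudocounts of 0.1 and 10, no filter or a mean above 10 TPM in every group, quantile, TMM-type and rescaled values, library weights, covariates, a fit over all 4 groups, a replicate block and each library left out.

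The 10 genes and the other adhesion lists were chosen with earlier results of these data known. All 10 were described; genes of the other lists were named where they passed the adjusted threshold, and Itgb8, Itgb5, Itgb6, Itgam and Itgax were named after their values were seen. For likeness the 3 most correlated genes were taken, of which 1 is not reported here. Gene positions are from GENCODE (GRCm38) and promoters from RefSeq (GRCm38.p6).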

Additional observations from a re-analysis of the deposited data

Results flagged for a closer look

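In groups of 4 to 10 libraries, the highest or lowest library was compared with the rest by Dixon's criterion, which chance passes in about 1 of 20 groups. It was passed in 4 of 40 groups looked at. Itgae was at 96.4 TPM in GBM IgG2a library tumor_369_a, where the other 4 were between 24.4 and 28.8 TPM. Icam1 was at 0.88 TPM in the same library, where the other 4 were between 30.4 and 44.7 TPM. Icam1 was at 0.18 TPM in splenic αPD1 + αGITR library 80_a, and the next lowest was at 11.7 TPM. Itgb7 was at 38.1 TPM in splenic αPD1 + αGITR library 72_b, and the next lowest was at 187 TPM. Library 72_b also had the lowest Foxp3 of all libraries, at 21.5 TPM, and tumor_369_a the fewest detected features, at 7702.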

How the results depend on the processing

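Over all 5 comparisons, 552 differences of the 10 genes under other settings kept their direction and their side of the study's threshold, 52 changed sign, 29 lost and 4 gained the call, and with a library left out 746 kept them, 40 changed sign, 20 lost and 4 gained the call. With GBM compared with spleen after αPD1 + αGITR, 7 genes passed the study's threshold, 3 with TMM-type factors and 6 to 7 with a library left out. With these tissues after IgG2a 3 passed, 1 with Cd3d, Cd3e and Cd3g as a covariate (chosen after seeing the data) and 1 to 4 with a library left out. For treatment in GBM 3 passed, 0 with TMM-type factors, rescaling or library weights, 1 with quantile normalization or all 4 groups in one fit, and 1 to 5 with a library left out. For treatment in spleen 1 passed, 2 with detected genes, all 4 groups or the Cd3 covariate, and 0 to 2 with a library left out. For the interaction 1 passed, and 0 to 1 with a library left out. Over all genes, the number past the study's threshold ran from 1501 to 4186 after αPD1 + αGITR and from 293 to 1225 after IgG2a between tissues, from 935 to 2424 and from 57 to 591 for treatment in GBM and spleen, and from 441 to 2160 for the interaction, where the main counts were 3020, 733, 1700, 168 and 1056. The cause was not tested. Depth limits are unknown.

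Differences that changed sign follow by setting, all on the log2 scale, with comparisons named as IgG2a tissue, treated tissue, GBM treatment, spleen treatment and interaction. With TMM-type factors IgG2a tissue was -0.18 for Itga4 and -0.16 for Itgb7, treated tissue -0.086 for Itgal, GBM treatment -0.17 for Itgae, -0.54 for Itgal, -0.60 for Itga4, -0.068 for Itgb2 and -0.073 for Selplg, spleen treatment -0.15 for Itgal, and the interaction -0.41 for Itgal, -0.37 for Itgb2, -0.0089 for Cd44 and -0.27 for Selplg. With quantile normalization IgG2a tissue was -0.62 for Itga4, -0.074 for Itgb1 and -0.21 for Itgb7, GBM treatment -0.11 for Itgal and -0.23 for Itga4, and spleen treatment -0.17 for Itgal. With rescaling IgG2a tissue was -0.29 for Itga4 and -0.20 for Itgb7, GBM treatment -0.037 for Itga4 and spleen treatment -0.073 for Itgal. With library weights IgG2a tissue was -0.22 for Itga4 and 0.22 for Icam1, treated tissue 0.14 for Itgb1, spleen treatment 0.094 for Itgb7 and the interaction 0.0026 for Itga4. With the Cd3 covariate IgG2a tissue was -0.10 for Itgal, -0.51 for Itga4, -0.031 for Itgb1, -0.13 for Itgb2 and -0.14 for Itgb7, GBM treatment -0.38 for Itga4 and spleen treatment -0.039 for Itgal. With detected genes spleen treatment was 0.21 for Itgb7 and the interaction -0.012 for Itgal, and with a pseudocount of 10 spleen treatment was -0.042 for Itgal. Without libraries high in Gp9 treated tissue was 0.72 for Itgb1, spleen treatment 0.34 for Itgb7, and the interaction -0.21 for Itgal, 0.29 for Itgb1, -0.19 for Itgb2 and -0.10 for Selplg. Without libraries high in macrophage and microglia markers GBM treatment was -0.22 for Itgal and -0.12 for Itga4, and the interaction -0.24 for Itgal.

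With 1 library left out, IgG2a tissue ran from -0.44 to 0.55 for Itga4, -0.026 to 1.24 for Itgb1, -0.030 to 0.43 for Itgb7 and -0.69 to 0.46 for Icam1. Treated tissue ran from -0.23 to 0.20 for Itgb1. GBM treatment ran from -0.28 to 0.51 for Itgal and -0.38 to 0.61 for Itga4. Spleen treatment ran from -0.35 to 0.34 for Itgal, -0.68 to 0.24 for Itgav and -0.30 to 0.29 for Itgb7. The interaction ran from -0.30 to 0.51 for Itgal, -0.11 to 0.59 for Itgb2 and -0.059 to 0.53 for Selplg. Requiring a mean above 10 TPM in every group left Itgae untested after IgG2a, for treatment in spleen and in the interaction.

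Library names share numbers between tissues, and deviations from group means of same-named libraries correlated at -0.16 to 0.18 across genes, so the numbers were not taken to pair samples. A replicate block kept only libraries with a same-named partner in the other tissue, so its fits also held fewer libraries. With it 2 genes passed the study's threshold for IgG2a tissue, 5 for treated tissue and 1 for the interaction, and over all genes 449, 1591 and 616 passed. The parts of the block and of the fewer libraries in these counts were not tested. At the adjusted threshold the block left 1 of the 5 genes for treated tissue, Itgav (adjusted p = 0.0232), and 135 of 1310 over all genes, while Cd44, Icam1, Selplg and Itgae had adjusted p of 0.0621, 0.103, 0.171 and 0.195 (limma). Under the block IgG2a tissue was -0.013 for Itgb7, treated tissue 0.41 for Itgb1, and the interaction -0.098 for Itgal, 0.13 for Itgb1 and -0.064 for Selplg. For the comparisons of treatment within GBM or within spleen, which share no library names between groups, no block could be fitted.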

Other observations

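Some pairs of these genes correlated differently in the 2 tissues, and the pairs named here were chosen after their values were seen, among all pairs of the 10 genes. Spearman's correlation of Itgal and Itgb7 was 0.82 over 15 splenic libraries and 0.34 over 12 GBM libraries. Itgae and Itgal had 0.12 over the splenic and 0.72 over the GBM libraries. Other pairs were alike, such as Itgb7 and Selplg at 0.79 and 0.72 and Itgb2 and Selplg at 0.85 and 0.69. These are descriptions over libraries that share treatment groups and scaling, and the differences were not tested.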
